A study of Mus musculus with 4 samples.

Results

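The Notch pathway was followed in mouse kidney through 7 of the 29190 genes of the deposited count table: the ligand gene Jag1, the receptor genes Notch1, Notch2, Notch3 and Notch4, and the target genes Hes1 and Hey1. They were taken by symbol, and each symbol matched 1 row. All 7 passed the filter on low counts. Kidneys of 8-week-old male C57 mice were compared after an injection of cisplatin at 30 mg/kg body weight (2 libraries) and after physiological saline (2 libraries). No allele or transgene is named in the labels, so the groups differed in the injection alone as far as these say. Cisplatin was given 24 h or 48 h before death, and the labels do not state which time these libraries come from. The 2 libraries of a group are called biological replicates in the design text, but the sources used here do not say whether tissue of several mice was pooled. The p-values therefore refer to the spread between these libraries, which the test estimates for each gene with help from all genes. The RNA came from renal tissue with all its cell types, and fewer cells of a type cannot be told apart from less RNA per cell.

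Notch receptors are single-pass membrane proteins that are switched on by Jagged or Delta-like ligands on a neighbouring cell. Ligand binding allows a metalloproteinase and then gamma-secretase to cut the receptor, and the freed intracellular part enters the nucleus, joins the DNA-binding protein RBPJ and a Mastermind coactivator, and turns on genes of the Hes and Hey repressor families. In the kidney the pathway is known for patterning the nephron during development, where Notch2 has the leading part, while Notch4 is known from endothelium and Notch3 from mural cells of vessels.

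After cisplatin the ligand gene Jag1 and the receptor genes Notch1, Notch3 and Notch4 rose between 2.21-fold and 4.44-fold, whereas Notch2, Hes1 and Hey1 did not pass the test. Notch2 was the most abundant receptor transcript in both groups, yet its share of the receptor transcripts went from 62.3% to 34.3%. Of the 7 genes 4 were called higher and 0 lower with edgeR's quasi-likelihood F test, where a call is a p under 0.05 after Benjamini-Hochberg (BH) adjustment over all genes. In the same fit 37.2% of the 17419 genes tested were called higher, 36.4% lower and 73.6% in either direction, so a call alone does not set these genes apart. All 4 rises were at least 2-fold, which was true of 19.2% of the genes tested. Cisplatin and saline libraries did not overlap for 5 of the 7 genes, against 86.3% of the genes tested.

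Sequences before the RefSeq start of 3 receptor genes are shown because the receptors divided between no call and a large rise. Promoter windows of 250 bases before the RefSeq start (GRCm38.p6) were at hand for 5 members, Jag1 and the receptors. The stretches below leave out bases that GENCODE places in an exon of the same gene. They are those of Notch2 (chr3:98013288-98013526, plus strand), which was not called, Notch3 (chr17:32166891-32167140, minus strand), which had the largest fold change of the 7 genes, and Notch4 (chr17:34564045-34564267, plus strand). Each is written 5′ to 3′ on the strand of its gene, with GC boxes (GGGCGG, either strand) and N-boxes (CACNAG, either strand) in capitals.
Notch2: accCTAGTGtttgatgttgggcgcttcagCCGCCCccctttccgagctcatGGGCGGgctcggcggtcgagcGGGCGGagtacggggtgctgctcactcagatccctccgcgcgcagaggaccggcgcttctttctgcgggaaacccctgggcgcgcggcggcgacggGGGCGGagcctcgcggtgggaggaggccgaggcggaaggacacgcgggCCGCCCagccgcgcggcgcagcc
Notch3: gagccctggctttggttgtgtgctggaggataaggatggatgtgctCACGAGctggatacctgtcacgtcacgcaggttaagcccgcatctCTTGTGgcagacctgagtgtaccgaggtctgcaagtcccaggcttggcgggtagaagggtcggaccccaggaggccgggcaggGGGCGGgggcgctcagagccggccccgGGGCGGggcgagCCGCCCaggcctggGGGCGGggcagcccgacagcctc
Notch4: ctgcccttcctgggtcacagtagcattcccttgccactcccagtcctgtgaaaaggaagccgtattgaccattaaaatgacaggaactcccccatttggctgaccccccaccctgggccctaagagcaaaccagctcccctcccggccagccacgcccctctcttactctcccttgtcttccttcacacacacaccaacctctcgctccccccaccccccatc
The GC box is the core that Sp1-type factors bind, and the N-box is a site of Hes repressors. No match of the 2 motifs overlapped another in these windows. The Notch1 window (chr2:26503825-26504072, minus strand) lies inside the GENCODE span of that gene, so it is not upstream of the whole gene. GC boxes numbered 5 in the window of Notch2, 5 in that of Notch1, 4 in that of Notch3, and 0 in those of Notch4 and Jag1. At least 1 GC box lay in 32.7% of all 32851 RefSeq windows of this length. N-boxes numbered 2 in Notch3, 1 in Notch1 and 1 in Notch2, with 36.7% of all windows holding 1 or more. The RBPJ core (TGGGAA, either strand) and the AP-1 site (TGANTCA, either strand) were matched in none of the 5 windows, and lay in 21.6% and 6.75% of all windows. The GC content of the windows was 57.2% for Jag1, 66% for Notch1, 72% for Notch2, 68.8% for Notch3 and 58.4% for Notch4, beside a median of 52.4% over all windows. GC boxes were thus found both in the window of the gene that was not called and in those of genes that rose.

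Jag1 (ENSMUSG00000027276.7, chromosome 2, 137081456 to 137116644, minus strand, GRCm38) encodes Jagged1, a membrane ligand of Notch receptors. It stood at 75.2 and 70.6 CPM in cisplatin replicates 1 and 2 and at 34.0 and 32.0 CPM in saline replicates 1 and 2 (CPM, counts relative to the TMM-scaled library total). Both cisplatin libraries lay above both saline libraries. Its mean rose from 33.0 ± 1.44 to 72.9 ± 3.22 CPM (SD, n = 2), a log2 fold change of 1.14 with a standard error (SE) of 0.07 (edgeR F test, BH-adjusted p = 8.32e-12). That log2 fold change was higher than those of 83.2% of the genes tested.

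Notch3 (ENSMUSG00000038146.7, chromosome 17, 32120820 to 32166852, minus strand) encodes the receptor known from vascular smooth muscle and pericytes. It stood at 42.3 and 41.9 CPM after cisplatin (replicates 1 and 2) against 8.12 and 10.8 CPM after saline. The cisplatin libraries nearly coincided, and the wider gap was between the saline libraries. Its mean rose 4.44-fold, from 9.47 ± 1.91 to 42.1 ± 0.269 CPM, with a log2 fold change of 2.13 (SE 0.11; edgeR F test, BH-adjusted p = 1e-12), above that of 93.8% of the genes tested.

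Notch4 (ENSMUSG00000015468.12, chromosome 17, 34564268 to 34588503, plus strand) encodes the receptor known from endothelial cells. It stood at 24.3 and 27.7 CPM after cisplatin (replicates 1 and 2) against 7.52 and 9.10 CPM after saline, without overlap. Its mean rose 3.13-fold, from 8.31 ± 1.11 to 26.0 ± 2.40 CPM, with a log2 fold change of 1.63 (SE 0.12; edgeR F test, BH-adjusted p = 1.63e-10).

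Notch1 (ENSMUSG00000026923.13, chromosome 2, 26457903 to 26516663, minus strand) encodes the founding receptor of the family, active in endothelium, lymphocytes and many epithelia. It stood at 63.3 and 71.5 CPM after cisplatin (replicates 1 and 2) against 23.7 and 24.7 CPM after saline, again without overlap. Its mean rose 2.79-fold, from 24.2 ± 0.683 to 67.4 ± 5.73 CPM, with a log2 fold change of 1.48 (SE 0.08; edgeR F test, BH-adjusted p = 1.09e-12). Processed transcripts on the opposite strand share exonic bases with Notch1, and the sources used here do not say if reads were counted by strand. The larger of them, 0610009E02Rik, had 69 and 82 counts after cisplatin, where Notch1 had 1502 and 1853.

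Notch2 (ENSMUSG00000027878.11, chromosome 3, 98013527 to 98150361, plus strand) encodes the receptor that nephron segmentation requires. It stood at 86.6 and 91.5 CPM after cisplatin (replicates 1 and 2) against 88.3 and 84.8 CPM after saline, and the groups overlapped. The log2 fold change was 0.04 with a 95% interval of -0.07 to 0.16 (edgeR F test, BH-adjusted p = 0.496), next to a median of 0.04 over all genes tested. The call depended on the scaling. With upper-quartile scaling Notch2 passed at 0.16 (edgeR F test, BH-adjusted p = 0.0145) and with library size alone at 0.41 (adjusted p = 1.68e-06), and the median of all genes tested moved to 0.16 and 0.41 as well. With limma-trend on log2 of FPKM plus 0.1 and 1 Notch2 passed at 0.31 and 0.26 (adjusted p = 0.0357 and 0.0392). The medians there were 0.20 and 0.04, but over 28436 genes with no filter on low counts, in place of 17419. They therefore do not show whether Notch2 moved more than other expressed genes on FPKM.

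**Figure D1:**
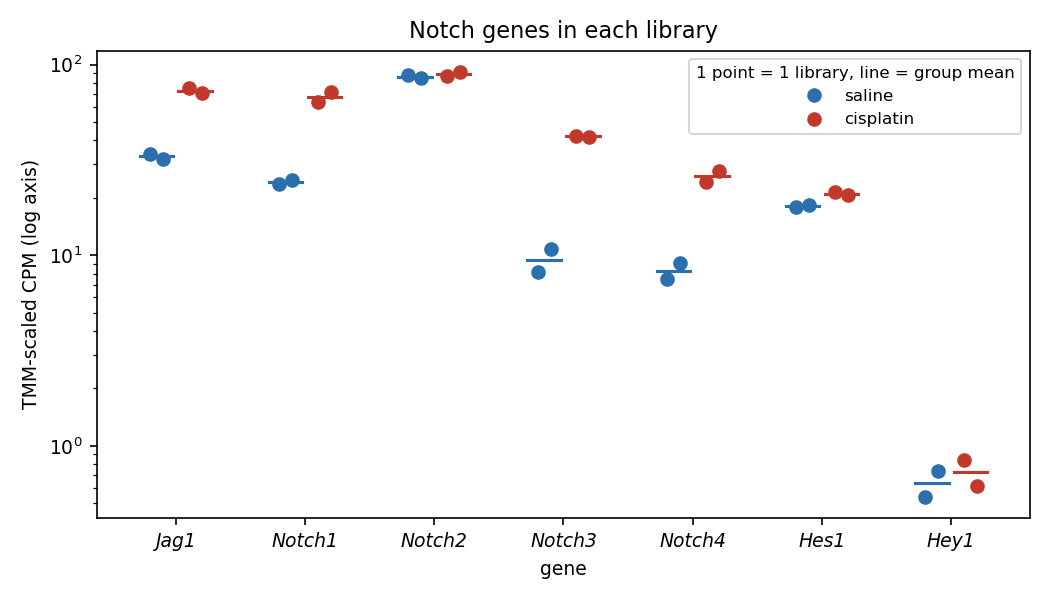
TMM-scaled CPM on a log axis for each of the 7 genes, with 1 point per library (blue, saline; red, cisplatin) and a line at the group mean. Jag1, Notch1, Notch3 and Notch4 sit higher in both cisplatin libraries, Hes1 is separated by a small gap, and the points of Notch2 and Hey1 overlap between the groups.

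Hes1 (ENSMUSG00000022528.7, chromosome 16, 30064384 to 30067796, plus strand) encodes a basic helix-loop-helix repressor that is the best known direct target of Notch and is also driven by other pathways. It stood at 21.4 and 20.6 CPM after cisplatin (replicates 1 and 2) against 17.97 and 18.4 CPM after saline. The groups did not overlap, but the gap was small. The log2 fold change was 0.21 with a 95% interval of 0.01 to 0.41 and did not pass after adjustment (edgeR F test, unadjusted p = 0.0423, BH-adjusted p = 0.057). It passed at 0.33 with upper-quartile scaling (adjusted p = 0.00487), at 0.57 with library size alone (adjusted p = 1.05e-05), at 0.23 with a filter of 1 CPM in 2 libraries (adjusted p = 0.0324), and at 0.47 and 0.43 with limma-trend on log2 of FPKM plus 0.1 or 1 (adjusted p = 0.022 and 0.0207). Each of these values lay below the log2 fold change of Jag1 under the same setting.

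Hey1 (ENSMUSG00000040289.6, chromosome 3, 8663359 to 8667256, minus strand) encodes a related repressor, known as a Notch target in endothelium and the cardiovascular system. It was the scarcest of the 7 genes, with 20 and 16 counts after cisplatin against 10 and 18 after saline. The groups overlapped, at 0.73 ± 0.16 CPM after cisplatin and 0.639 ± 0.139 CPM after saline. With a log2 fold change of 0.16 and a 95% interval of -0.73 to 1.05, a difference was not detectable at this depth, and the interval spans both a 2-fold rise and a fall (edgeR F test, BH-adjusted p = 0.745).

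Levels of different genes were compared per transcript length, on the deposited FPKM scale (fragments scaled by transcript length and by library). After saline the order was Hes1 at 7.13 ± 0.601 FPKM, Notch2 at 4.74 ± 0.191, Jag1 at 3.38 ± 0.0849, Notch1 at 1.47 ± 0.141, Notch4 at 0.725 ± 0.149, Notch3 at 0.68 ± 0.184 and Hey1 at 0.15 ± 0.0424 FPKM (SD, n = 2). Notch4 and Notch3 overlapped between libraries, and the other neighbours did not. After cisplatin the order was Hes1 at 9.93 ± 0.389 FPKM, Jag1 at 9 ± 0.509, Notch2 at 5.88 ± 0.149, Notch1 at 4.92 ± 0.354, Notch3 at 3.63 ± 0.0636, Notch4 at 2.73 ± 0.212 and Hey1 at 0.205 ± 0.0495 FPKM, and no neighbours overlapped. On this scale Jag1 lay below Notch2 after saline and above it after cisplatin. The order of Notch3 and its neighbours, and of Hes1 and Jag1 after cisplatin, depended on the length used. With counts per kilobase of annotated exon Notch3 lay above Notch4 already after saline, and above Notch1 in both cisplatin libraries. On that scale Jag1 lay above Hes1 in both cisplatin libraries, with 1782 and 1831 counts over 5827 exon bases. Hes1 had 508 and 535 counts there over 2037 exon bases.

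Within a library the scaling cancels, so the receptors were also expressed as shares of their summed FPKM. Notch2 made up 64.4 and 60.3% of the receptor FPKM in saline replicates 1 and 2 and 34.6 and 34.0% in cisplatin replicates 1 and 2. Notch3 made up 7.70 and 10.025% after saline and 22.0 and 20.3% after cisplatin. Notch1 went from 19.2 and 19.4% to 28.0 and 29.4%, and Notch4 from 8.68 and 10.3% to 15.5 and 16.4%. For each receptor both cisplatin libraries lay on the same side of both saline libraries. The summed receptor FPKM was 7.14 and 8.08 after saline against 16.7 and 17.6 after cisplatin. This sum, unlike the shares, depends on the scaling between libraries. In TMM-scaled CPM, which is not scaled by transcript length, the sums were 127.7 and 129.4 after saline against 216.5 and 232.5 after cisplatin. With counts per kilobase of annotated exon in place of FPKM, Notch2 made up 67.3% of the receptors after saline and 38.6% after cisplatin. On that scale Notch3 had 25.2 and 23.4% after cisplatin, above Notch1 at 21.5 and 22.7%.

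**Figure D2:**
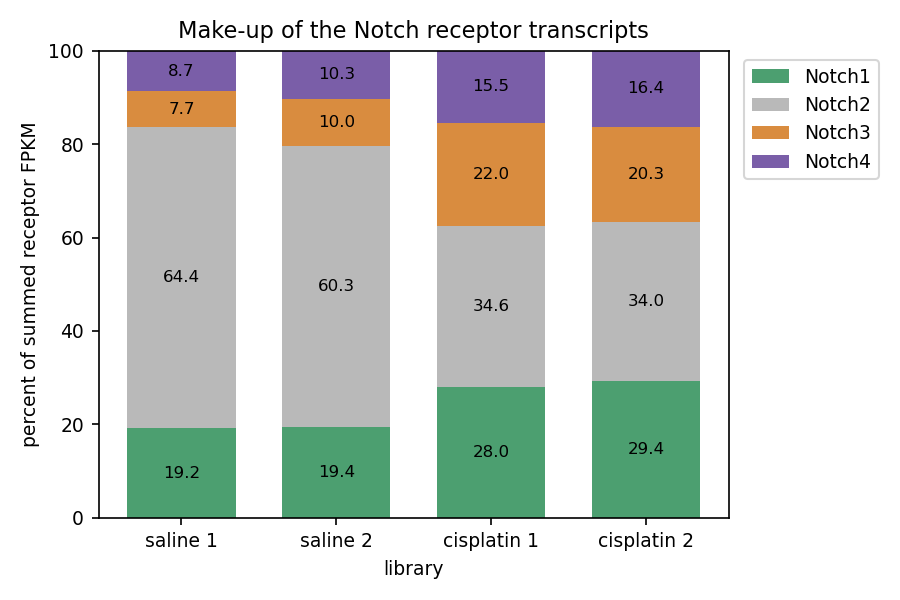
Share of each receptor in the summed FPKM of Notch1 to Notch4, in percent, with 1 stacked bar per library. The grey Notch2 block takes 64.4 and 60.3% of the saline bars and 34.6 and 34.0% of the cisplatin bars, and each of the other blocks is taller after cisplatin.

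Ratios of counts inside a library need no scaling between libraries. Per count of Notch2 there were 0.488 and 0.458 counts of Notch3 after cisplatin against 0.0919 and 0.128 after saline. Per count of Hes1 there were 3.51 and 3.42 counts of Jag1 after cisplatin and 1.90 and 1.74 after saline. Hes1 per count of Notch2 was 0.247 and 0.226 after cisplatin and 0.203 and 0.217 after saline. None of these ratios overlapped between groups, and the exact two-sided permutation test gave p = 0.333 for each, which is the smallest p that 2 against 2 libraries allow.

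The other genes of the pathway came from a list of 57 textbook components, of which 50 were tested. Called higher were 17 and called lower 19, with a median log2 fold change of -0.02 beside 0.04 over all genes tested, and 72% of the tested list genes were called beside 73.6% of all genes. The direction of these calls depended on the scaling: with library size alone 27 list genes were higher and 10 lower, and with limma-trend on FPKM 17 or 18 were higher and 9 lower, at pseudocounts of 0.1 and 1. Over all genes 6487 were higher and 6333 lower with TMM, 9110 and 4207 with library size alone, and 7258 and 3804 (pseudocount 0.1) or 7319 and 3784 (pseudocount 1) with FPKM.

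Of the other ligand genes 2 of 3 tested rose. Jag2, the second Jagged ligand, rose from 2.09 to 7.47 CPM (log2 fold change 1.84, SE 0.19), and Dll1, a Delta-like ligand, from 7.26 to 12.9 CPM (0.82, SE 0.13). Dll4, the endothelial tip cell ligand, stood at 7.49 CPM after saline and 6.74 CPM after cisplatin and did not pass (-0.14, SE 0.17). Both Jagged genes were thus called higher, and on the FPKM scale Jag1 was the more abundant of them in every library. Dll3, Dlk1 and Dlk2 had too few counts to be tested.

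Fringe enzymes add sugars to Notch receptors that shift their preference between Delta-like and Jagged ligands. Among 5 genes of receptor glycosylation Lfng rose from 6.12 to 11.1 CPM (log2 fold change 0.85, SE 0.14) and Rfng fell from 9.91 to 4.89 CPM (-1.003, SE 0.17). Mfng and the O-glycosyltransferase genes Pofut1 and Poglut1 did not pass. The Fringe genes therefore moved in opposite directions.

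Genes of receptor cleavage fell in 8 of 10 cases, and 1 rose. The falls were mostly small, with a median log2 fold change of -0.30 for the list. Adam10, the main metalloproteinase of ligand-induced Notch cleavage, fell from 109 to 83.1 CPM (-0.39, SE 0.06). Aph1c, a gamma-secretase subunit gene, fell from 51.8 to 15.7 CPM (-1.72, SE 0.09), and Aph1b from 29.7 to 19.3 CPM (-0.63, SE 0.10). Aph1b and Aph1c are close paralogs, and the sources used here do not say how reads that fit both were counted, so their values are uncertain. Psen2, one of the catalytic presenilins, fell from 13.3 to 8.81 CPM (-0.59, SE 0.12), and Ncstn, the gamma-secretase subunit nicastrin, rose from 56.4 to 77.3 CPM (0.45, SE 0.06). With limma-trend on FPKM Adam10 (-0.12 and -0.11 at pseudocounts of 0.1 and 1), Aph1b and Psen2 did not pass, and with library size alone Adam10 (-0.020) and Psen2 did not pass.

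Ligands act once they are ubiquitinated and pulled into the sending cell. The ubiquitin ligase genes Mib1 and Mib2 fell, Mib1 from 259 to 161 CPM (log2 fold change -0.69, SE 0.06) and Mib2 from 21.6 to 13.5 CPM (-0.67, SE 0.10). Neurl1b rose from 25.5 to 32.7 CPM (0.36, SE 0.09), and the scarce Neurl1a, which completes the 2 rises of this list of 5, from 0.313 to 1.49 CPM (2.18, SE 0.43). The list thus held calls in both directions.

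Among genes of receptor turnover and inhibitors 6 of 10 tested rose and 3 fell. Nrarp, a feedback inhibitor that Notch itself switches on, rose from 4.17 to 12.9 CPM (log2 fold change 1.63, SE 0.15; edgeR F test, BH-adjusted p = 5.95e-09). Its counts were high in both cisplatin libraries and the groups did not overlap. Dtx4, a Deltex ubiquitin ligase gene, rose from 16.2 to 49.2 CPM (1.61, SE 0.10), and Numbl, a relative of the Notch inhibitor Numb, from 1.18 to 4.41 CPM (1.89, SE 0.25). The 3 genes that fell were Itch (-1.40, SE 0.06), Numb (-0.38, SE 0.07) and Nedd4 (-0.32, SE 0.06), named here because they make up that count. The falls of Numb and Nedd4 depended on the scaling. On the FPKM scale the groups overlapped, with Numb at 6.86 and 6.17 FPKM after cisplatin against 6.67 and 7.42 after saline, and Nedd4 at 32.79 and 30.14 against 30.16 and 35.26. Neither passed with limma-trend on FPKM, and with library size alone the log2 fold changes were -0.016 for Numb and 0.043 for Nedd4. Itch encodes a ubiquitin ligase of Notch and Numb an adaptor that sends the receptor to degradation.

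In the list of the nuclear complex and its corepressors 4 of 12 rose and 4 fell. Rbpj, the DNA-binding core of the complex, was at 55.9 CPM after saline and 55.2 CPM after cisplatin and did not pass (log2 fold change -0.02, SE 0.06). With library size alone it passed at 0.35 (edgeR F test, BH-adjusted p = 8.74e-05), below the median gene of that scaling. The coactivator gene Maml1 rose from 14.2 to 35.005 CPM (1.30, SE 0.09). The corepressor gene Spen rose from 44.3 to 90.2 CPM (1.03, SE 0.06). Kat2b, which encodes the acetyltransferase PCAF that works with the Notch complex, fell from 129 to 71.9 CPM (-0.84, SE 0.06). Coactivator and corepressor genes were thus both among the rises.

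The rest of the Hes and Hey family split. Heyl, a Hey relative known from vascular smooth muscle as a target of Notch3, rose from 2.89 to 6.90 CPM (log2 fold change 1.25, SE 0.18; edgeR F test, BH-adjusted p = 3.85e-06). Hes6, which opposes Hes1 and is not a standard Notch target, fell from 29.9 to 7.17 CPM (-2.06, SE 0.10; adjusted p = 7.15e-13 by the same method). Hes2 (0.78, SE 0.48), Hes7 (0.28, SE 0.40) and Hey2 (-0.15, SE 0.31) were near 1 CPM and did not pass. Helt, Hes3 and Hes5 were not tested because their counts were at most 3 in every library. Hes2 passed with library size alone (1.14, adjusted p = 0.0271), and Hey2 changed sign with library size alone, with FPKM and without saline replicate 1.

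**Figure D3:**
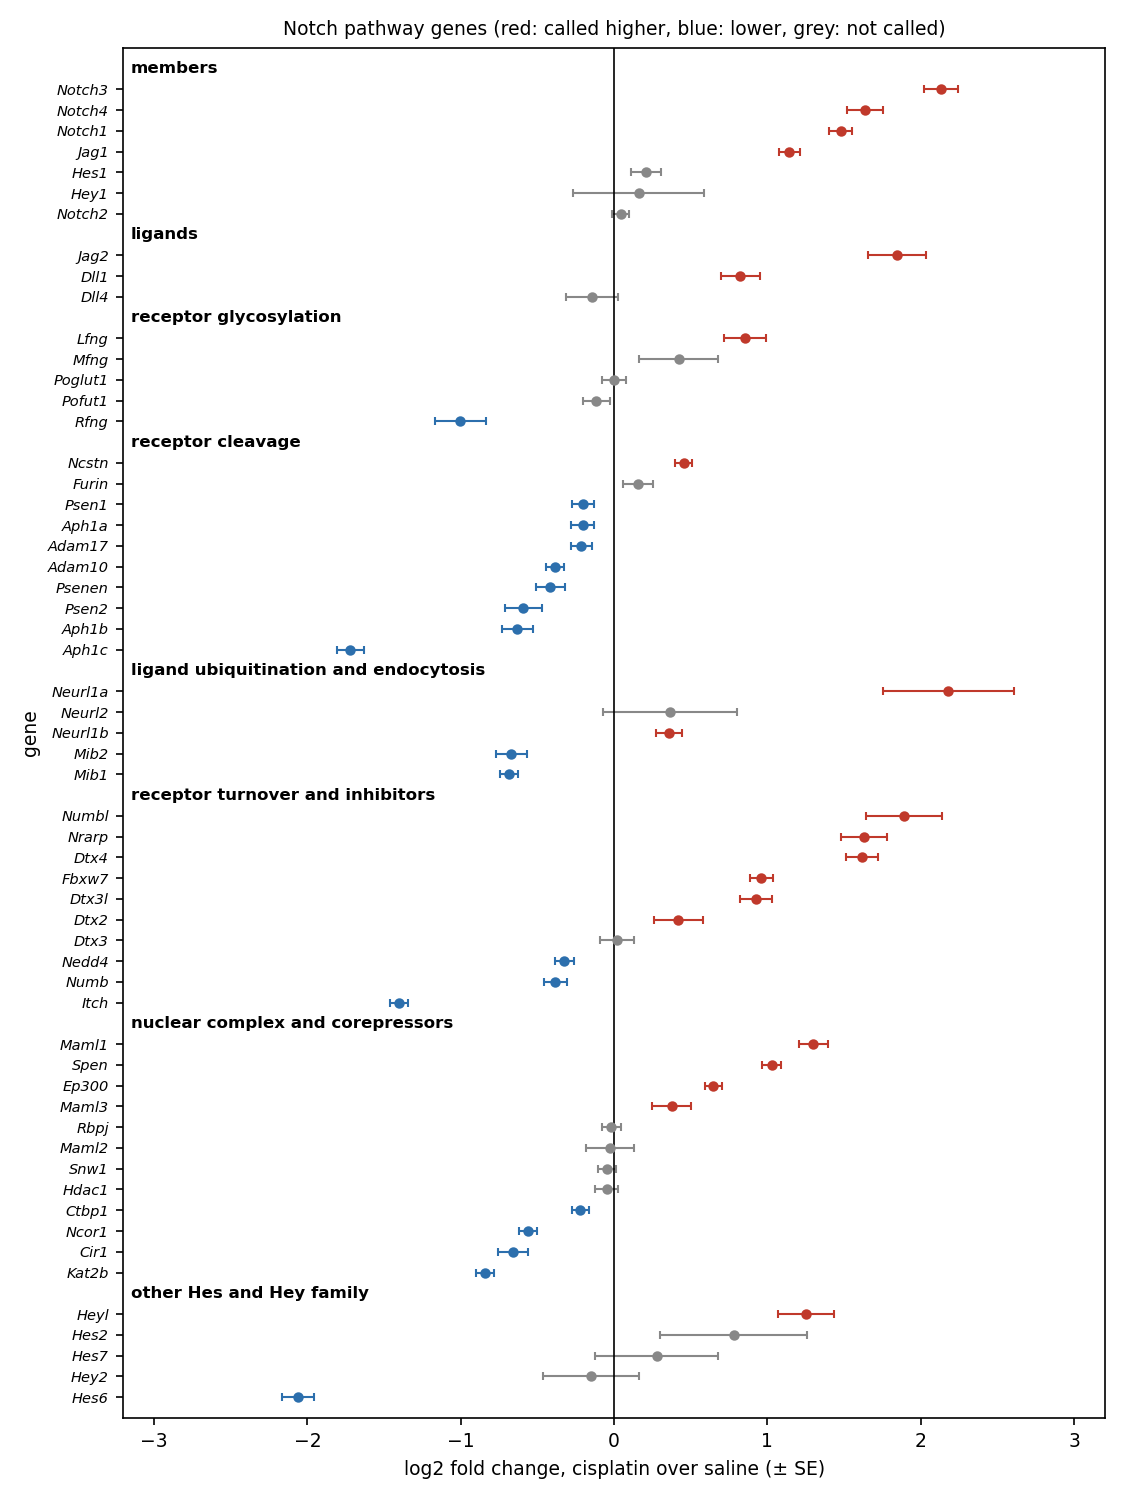
Log2 fold change of cisplatin over saline, with its standard error, for the 7 genes and for the 50 tested genes of the pathway lists, sorted within each list (red, called higher; blue, called lower; grey, not called). Notch3 at 2.13 and Hes6 at -2.06 lie near the ends, and most cleavage genes lie to the left of 0.

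Marker genes of the cell types in which these receptors are known moved in the same libraries. Of 12 endothelial markers 9 were higher and 2 lower, with a median log2 fold change of 0.79 and a summed level of 1095 and 1126 CPM after cisplatin against 799 and 802 CPM after saline. Of 12 mural and fibroblast markers 9 were higher and 1 lower, with a median of 1.11 and a sum of 1292 and 1307 CPM against 506 and 515 CPM. None of these markers was at 0. Per 100 counts over the endothelial markers there were 2.22 and 2.46 counts of Notch4 after cisplatin and 0.941 and 1.14 after saline, and 5.79 and 6.35 counts of Notch1 against 2.97 and 3.08. Per 100 counts over the mural and fibroblast markers there were 3.27 and 3.21 counts of Notch3 after cisplatin and 1.60 and 2.10 after saline. The receptors were thus higher also relative to the summed markers, but single markers differed widely. Log2 fold changes ranged from -0.38 (Kdr) to 1.50 (Esam) in the endothelial list. In the mural and fibroblast list they ranged from -0.93 (Cspg4) to 2.66 (Col1a1). Esam was near Notch1 (1.48) and below Notch4 (1.63), and Col1a1 was above Notch3 (2.13). The part of these cell types in the receptor values was not tested.

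The labels' tissue was checked on segment markers, none of which was at 0 in all libraries. All 10 proximal tubule markers were lower after cisplatin (median -2.66; sum 18880 and 18260 CPM against 48500 and 46680 CPM), as were all 8 of the thick limb and distal tubule (median -1.75). Of 10 collecting duct markers 6 were lower and 3 higher (median -0.60). Of 8 podocyte markers 7 were higher and 1 lower (median 0.82). Of 10 macrophage markers 8 were higher and 1 lower (median 1.37). All 5 tested of 8 neutrophil markers were higher (median 4.33; sum 33.2 and 30.7 CPM against 4.11 and 2.91 CPM). Of 5 tested lymphocyte markers 1 was higher, and all 10 tubule injury markers were higher (median 3.91). The part of any of them in the values of the Notch genes was not tested.

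**Figure D4:**
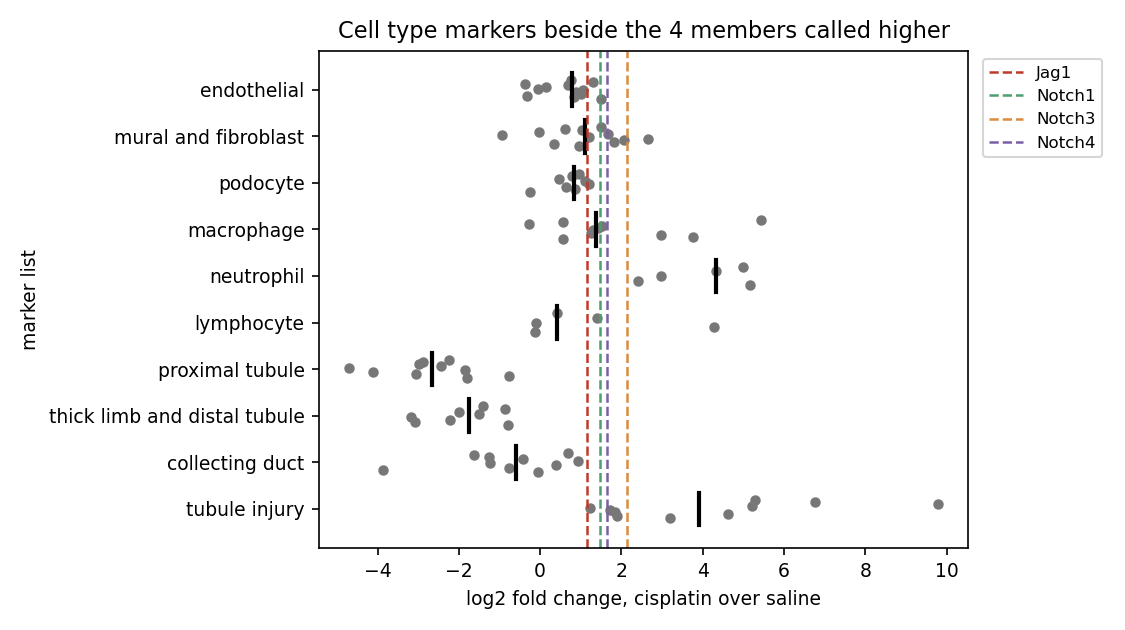
Log2 fold change of cisplatin over saline for each tested marker gene (grey points) by cell type list, with the list median as a black bar and dashed lines at the values of Jag1, Notch1, Notch4 and Notch3. The medians of the endothelial list (0.79) and of the mural and fibroblast list (1.11) lie to the left of all 4 lines, and those of the tubule segments lie below 0.

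Genes with the most similar profile were sought by the root mean square difference of centred log2 CPM over the 4 libraries, among the 11535 genes whose mean reached 5 CPM. The nearest to Notch3 were Slc7a14 (difference 0.02), Synm (0.04) and Tlr13 (0.05), and 24 genes lay within 0.1. The nearest to Jag1 were Plek, Armcx4 and Ngdn, with 348 genes within 0.1, to Notch1 Itpr3, Rrp12 and Lgals3bp (170 genes), and to Notch4 Adrm1, Plcd4 and Fen1 (61 genes). Notch2 had Sash1, Metap2 and Dnal1 as its nearest and 1356 genes within 0.1. Hes1 had Rab11a, Art4 and Rexo4 as its nearest (1294 genes), and Hey1 had Abca6, Orai3 and Zc4h2 (15 genes). With 4 libraries in 2 groups this likeness mostly reflects the size of the difference between the groups.

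The log2 fold changes of the 7 genes were recomputed under 14 alternatives. Jag1 ranged from 1.10 to 1.51, Notch1 from 1.26 to 1.84, Notch3 from 1.47 to 2.50 and Notch4 from 1.11 to 1.998, and all 4 passed under each alternative, the largest BH-adjusted p being 0.00585, with limma-trend on FPKM. Notch3 had the largest value of the 7 under every alternative. Hes1 ranged from 0.18 to 0.57 and Notch2 from 0.00 to 0.41. Hey1 was not called under any of the 13 alternatives in which it was tested.

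**Figure D5:**
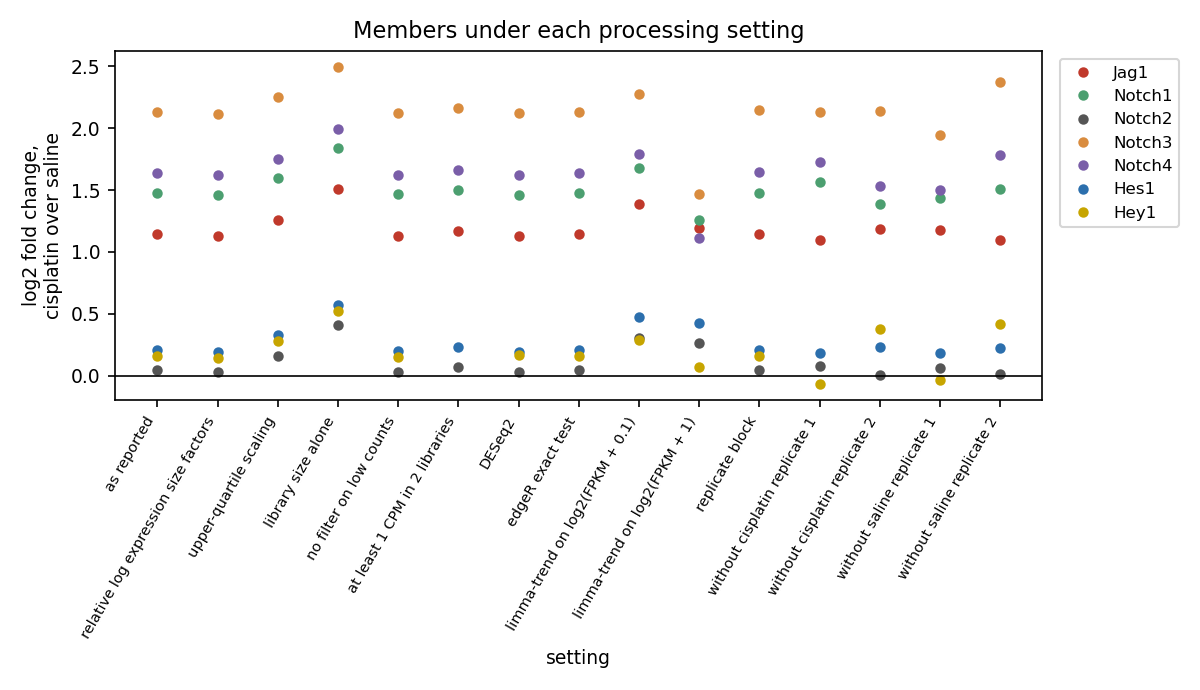
Log2 fold change of cisplatin over saline for each of the 7 genes (colours) as reported and under each alternative (x axis). Notch3, Notch4, Notch1 and Jag1 stay above 1 throughout, while Hes1, Notch2 and Hey1 stay below 0.6.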

How the data were processed

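Per the labels' protocols, directional libraries were made from DNase-treated kidney RNA after removal of ribosomal RNA and read as 150 nt pairs. The authors deposited raw read counts per gene and FPKM values per gene, both with 1 column per library, and the columns were matched to samples by title. Per the submitters' processing notes, the build was GRCm38 and the tools included bcl2fastq, TopHat2 and edgeR. The sources used here do not give their versions, the counter, its strand setting or the annotation release. Library totals were 20662475 and 23150274 counts (cisplatin) and 21483564 and 27122403 counts (saline). A floor of 3 counts was 0.116 to 0.162 CPM, which covers counting error only, whereas the 95% intervals of fold changes came from the fit and include the spread between libraries.

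The F test of edgeR 4.0.16 (R 4.3.3) was run on the counts of all genes (filterByExpr, TMM, quasi-likelihood F test, 2 residual degrees of freedom, Benjamini-Hochberg adjustment over 17419 genes, calls at 0.05). Standard errors came from the fitted log2 fold change and its F statistic. The fit moderates the dispersion of each gene with that of all genes, so intervals and p-values rest on more than 2 degrees of freedom. The biological coefficient of variation was 6.42%. The tests were run first on simulated data. Members and lists were chosen with earlier results of these data known, and the motifs after reading the promoter sequences. A pathway gene of the lists is not reported here and was left out of the counts.

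Named were the 7 members, of each pathway list the 3 called genes with the largest change and a mean of at least 1 CPM, the Hes and Hey relatives with 10 counts in a library, and the 3 nearest genes of each member. Genes that make up small counts, or abundant components such as Adam10 and Rbpj, were named after their values were seen. Alternatives were other scalings and filters, DESeq2 1.42.0, edgeR's exact test, limma 3.58.1 (limma-trend) on log2 of FPKM plus 0.1 or 1, a replicate block, and fits without each library in turn. Coordinates came from GENCODE M21 (GRCm38), matched by identifier without version, and promoter sequences from RefSeq (GRCm38.p6). Python 3.11.15 and matplotlib 3.10.9 served for shares, motif searches and plots.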

Additional observations from a re-analysis of the deposited data

How the results depend on the processing

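Over the alternatives the 7 genes kept direction and side of the threshold in 86 of 97 comparisons, and the named pathway genes in 375 of 404. Calls among the 7 genes numbered 4 to 6 higher and 0 lower. Of the changes for the 7, 9 were calls gained by Notch2 or Hes1, and 2 were sign changes of Hey1, to -0.070 without cisplatin replicate 1 and to -0.035 without saline replicate 1, within a range of -0.070 to 0.42 over the libraries left out. Hes2 ranged from -0.010 (without cisplatin replicate 2) to 1.27, and Hey2 from -0.48 to 0.19 (without saline replicate 1). On FPKM Hey2 was at 0.10 and 0.033 for pseudocounts of 0.1 and 1, and library size alone put it at 0.22. Rbpj turned positive with upper-quartile scaling (0.098), library size alone (0.35), a filter of 1 CPM in 2 libraries (0.0068) and FPKM (0.25 and 0.21), and Nedd4 with library size alone (0.043). Dll4 was at 0.22 with library size alone, at 0.095 and 0.060 on FPKM, and at -0.43 (without cisplatin replicate 2) to 0.080 (without cisplatin replicate 1). With library size alone 27 pathway genes were higher and 10 lower, and 4207 of all genes were lower. With FPKM 9 pathway genes were lower at either pseudocount, and 3804 and 3784 of all genes. The cause was not tested. Counts per kilobase in place of FPKM gave receptor shares after cisplatin of 22.1% for Notch1, 38.6% for Notch2, 24.3% for Notch3 and 15.04% for Notch4, and after saline of 14.2% for Notch1, 67.3% for Notch2, 9.80% for Notch3 and 8.63% for Notch4, so that Notch3 lay above Notch4 after saline and above Notch1 after cisplatin, the reverse of the FPKM order. Leaving out each library gave 16 to 19 pathway genes lower and 16 to 18 higher. No shared effect of the replicate numbers was seen, since the differences between replicates 1 and 2 correlated at -0.02 between groups. With 1 such difference per group, this cannot show whether the libraries were paired by design. With a replicate block 4 of the 7 genes were higher, with 6382 of all genes higher and 6271 lower. Depth limited Hey1, Hes2 and Hes7, all near 1 CPM.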

Other observations

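Transcripts that overlap the Notch loci were read as well. The processed transcript 0610009E02Rik, on the strand opposite Notch1, had 69 and 82 counts after cisplatin against 18 and 14 after saline, and rose with a log2 fold change of 2.01 (SE 0.31; edgeR F test, BH-adjusted p = 9.41e-06). Gm13568, also opposite Notch1, had 20 and 14 counts against 0 and 8, and passed at 1.87 (SE 0.67; adjusted p = 0.018 by the same method). RP23-97M20.1 overlaps Notch2 on the same strand but shares no exonic bases with it. This transcript had 175 and 158 counts against 67 and 79. It rose with a log2 fold change of 0.98 (SE 0.18, edgeR F test, BH-adjusted p = 8.65e-05), while Notch2 itself stood at 0.04. RP23-3C4.2, which shares exonic bases with Notch2, was not called (0.31, SE 0.33), and Gm17276, antisense to Notch3, stood at 0.01 (SE 0.40) while Notch3 rose by 2.13. These genes were chosen after their values were seen, for their position alone.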
